A study of Neurospora discreta with 48 samples.

Results

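Scaffold 13 of the Neurospora discreta assembly carried 269 of the 9280 gene models (2.90%) in a comparison of the transcripts of 2 wild strains after 15 min of light. The study looked for candidate genes behind clock differences between habitats. All genes listed on that scaffold were taken, in the order of their start positions. The scaffold was chosen from the results of this same comparison, in which many of its genes had been called different. Its calls and fold changes are therefore described here and not tested. The strains were FGSC8831, an African isolate with the label high RI, and FGSC8578, a North American isolate labelled low RI, where RI is left unexplained. Each habitat was represented by 1 isolate, with 3 libraries each at this time point. The mycelial pads, sampled as mycelia with conidia, came from cultures in low glucose medium at a constant 25 °C that had been entrained to 12 h of light and 12 h of dark. The full series has 48 libraries, in which the progeny strains N309-89 (high RI) and N309-50 (low RI) and 3 other times (1 h and 2 h of light, and the 2 h dark sample) are not analysed here.

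All values derive from the authors' deposited table, which lists for each gene 1 mean in each of 2 arms named A and B, in normalized counts (counts divided by a size factor for the library). The column names do not tie an arm to a strain. Read in the order of the table's name, A would be FGSC8578 and B would be FGSC8831. No column states this, so directions are written as A and B throughout. No value per library was listed, so no SD can be given, and the depth of single libraries is unknown. The arm means summed to 9331506 normalized counts in A, and to 10507386 in B, over all genes. A gene was called different where the DESeq adjusted p in the authors' deposited table was under 0.05. Those p-values rest on 3 libraries against 3, and the labels do not state whether the 3 were separate cultures, so the spread behind them may be technical. In RNA from whole pads, fewer cells of a type and less RNA per cell cannot be told apart.

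Neurospora species are filamentous ascomycetes whose draft genome assemblies consist of scaffolds, stretches of joined sequence that need not be whole chromosomes. In Neurospora crassa, a blue light receptor complex of the white collar proteins turns on a first wave of genes within minutes of lights on, and the same proteins drive the circadian clock. Genes of filamentous fungi that act in one secondary metabolic pathway often lie side by side. Regions near the chromosome ends of Neurospora crassa are rich in repeats that have been mutated by repeat-induced point mutation and packed into heterochromatin. None of this can be assigned to single genes of scaffold 13, because the table pairs no ID with a name or function and no annotation was used here. For the same reason neither light-regulated genes nor markers of mycelium and conidia could be looked up, and genes are identified by their position. Identifiers are printed for 2 genes in each direction.

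The gene models of scaffold 13 ran from position 190 to position 973222, a span of 973 kb with 27.6 genes per 100 kb. On the plus strand lay 145 genes and on the minus strand 124. The median gene model covered 1521 bp, introns included, with 423 bp at the 10th percentile and 2980 bp at the 90th. Those of all other scaffolds covered 1720 bp at the median, 507 bp at the 10th percentile and 3533 bp at the 90th. Genes on scaffold 13 were thus shorter at each of these 3 points. The gap between neighbouring models had a median of 1339 bp, against 1032.5 bp elsewhere. Of the gaps on scaffold 13, 7.84% were longer than 5 kb, against 6.67% on the other scaffolds. Longer than 8 kb were 2.24% and 2.45%. The widest gap, 19.8 kb between 27831 and 47679, lay near the left end, and both genes beside it were called higher in B. The next widest measured 13.98 kb (357267 to 371245) and 12.3 kb (777129 to 789409). Neighbouring models overlapped in 7 places.

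Transcript levels on scaffold 13 were low for this genome. The median gene had a mean over both arms of 92.9 normalized counts, against 231 on all other scaffolds. Per kb of gene model, the scale used for comparing levels, the medians were 65.5 and 123. Among the 23 scaffolds with at least 40 genes, scaffold 13 had the 3rd lowest median level per kb. Genes with a mean under 10 normalized counts made up 20.1% of the scaffold (54 genes), against 10.96% elsewhere. At the other end, 35 genes (13.01%) had a mean of at least 1000, against 17.4% elsewhere. The lower median was seen in each arm, at 88.2 normalized counts in A (229 on the other scaffolds) and 70.1 in B (218). Scaffolds 12 and 14, the nearest in number, had median levels per kb of 117 and 105.

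The summed means gave another picture of the arms than the medians did. The scaffold 13 genes summed to 151351 normalized counts in A (1.62% of the arm's total) and to 200440 in B (1.91%). The ratio of the sums, B over A, was 1.32, against 1.12 on the other scaffolds. One gene at 300176 to 303178, listed at 2426 normalized counts in A against 32896 in B by the authors' deposited table, made up most of the difference between the sums. Without it the ratio of scaffold 13 was 1.13. The sum was thus higher in B while most genes were lower in B.

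**Figure D1:**
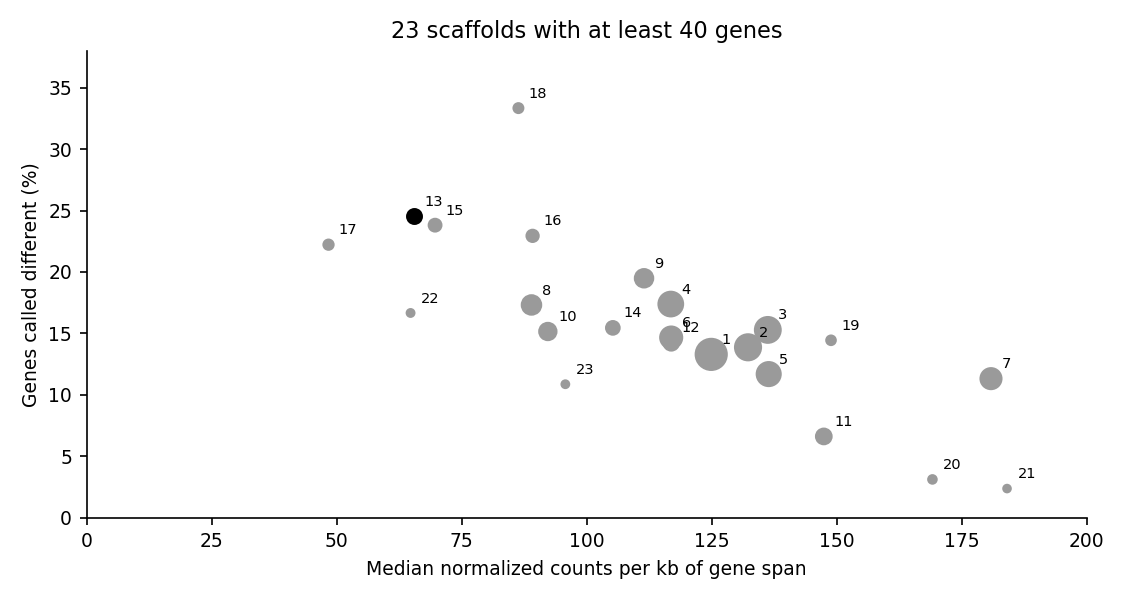
Median level per kb of gene model (normalized counts per kb) and share of genes called different (%) for the 23 scaffolds with at least 40 genes, 1 point per scaffold. Scaffold 13 lies at 65.5 normalized counts per kb and 24.5% called, with the 3rd lowest level and the 2nd highest share.

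Of the 269 genes, 66 (24.5%) were called different between the strains in the authors' deposited table, where 15.0% of all 9280 genes were. Higher in B were 24 genes (8.92%, against 6.93% of all genes), and higher in A were 42 (15.6%, against 8.03%). Genes higher in A thus made up 63.6% of the scaffold's calls, and 53.7% of the calls over all genes. The split moved with the level: at a mean of 10 CPM or more (counts scaled to a fixed total), the calls were 21 with B above A and 22 with A above B. Called genes with at least a 4-fold difference numbered 44 (16.4%, against 7.10% of all genes), 13 higher in B against 31 higher in A. At 16-fold or more there were 4 higher in B against 11 higher in A, or 9 in A once genes at 0 were set at their lower bounds. The whole table had 62 and 149 genes at that limit without such bounds, a split like the 4 and 11 of the scaffold. The call nearest the threshold had an adjusted p of 0.0492, and the gene just outside it 0.0516, both from the authors' deposited table. In all, 12 genes had an adjusted p from 0.05 to 0.1.

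The directions differed in level and in the size of the difference. Called genes higher in B had a median mean of 492 normalized counts, or 407 per kb, and those higher in A 127, or 63.7 per kb. The called genes of the whole table had a like contrast, with 428 (223 per kb) and 125 (85.3 per kb). The median log2 of B over A was 2.00 for the former and -2.60 for the latter, against 1.70 and -2.13 for the called genes of the whole table. Genes listed at 0 in an arm had no finite log2 value and stood outside these medians, which became 2.02 and -2.61 with such genes at their bounds. The smallest difference among the 66 calls was 1.14 on the log2 scale.

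The share of called genes was read by level, because a test on counts has more power on abundant genes. In the lowest tier, with means under 50 normalized counts, 19 of 109 genes were called (17.4%), 17 of them higher in A. Between 50 and 200 it was 12 of 59 (20.3%), 9 of them higher in A. From 200 to 700 the calls comprised 22 of 58 genes (37.9%), 12 higher in B against 10 higher in A. At 700 or more, 13 of 43 were called (30.2%), 7 higher in B against 6 higher in A. The other scaffolds had 13.9%, 17.0%, 12.6% and 15.7% in the same tiers. Scaffold 13 therefore lay above them in each tier, by the most from 200 to 700. Calls higher in A outnumbered those higher in B in the 2 tiers below 200 and not in the 2 above. Below 200 the other scaffolds showed the same order, with 89 against 207 calls under 50 and 126 against 227 from 50 to 200, for B and A in turn. Above it they had 160 against 168 calls from 200 to 700 and 244 against 101 at 700 or more.

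**Figure D2:**
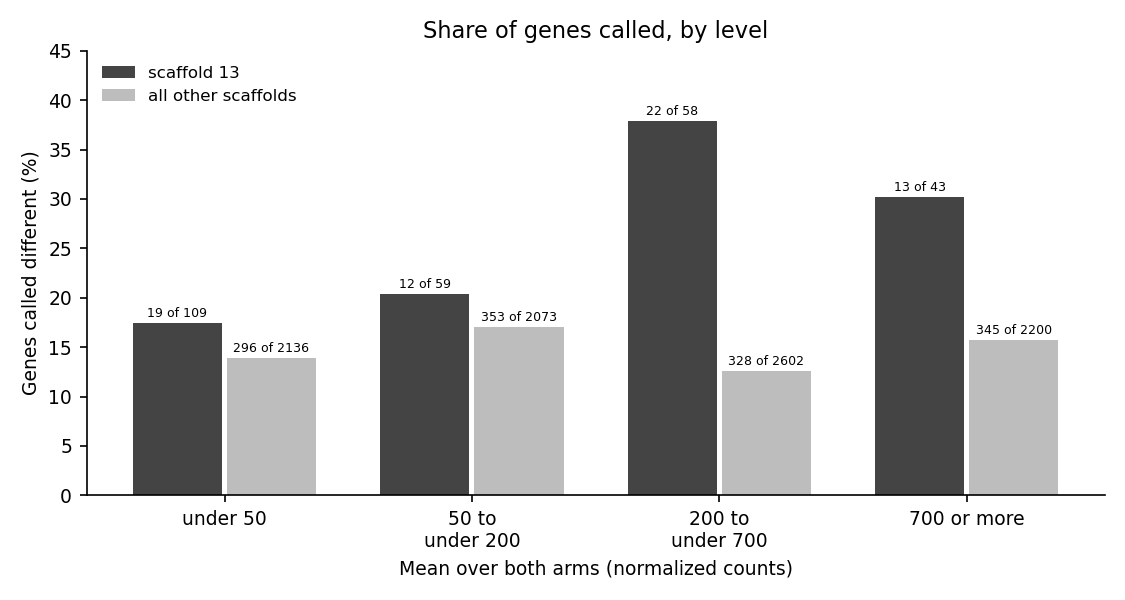
Share of genes called different (%) in 4 tiers of the mean over both arms (normalized counts), for scaffold 13 (dark bars) and all other scaffolds (light bars), with called genes of all genes above each bar. The dark bars run from 17.4% to 37.9% and the light bars from 12.6% to 17.0%.

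The lean towards A was also present in the log2 values as a whole. Over the 213 genes whose mean reached 10 and that had counts in both arms, the median log2 of B over A was -0.25, against 0.04 for 7998 such genes elsewhere. That median was the lowest among the 23 scaffolds. Setting the arm totals equal shifts every log2 value by 0.17, to medians of -0.43 and -0.13, and leaves the gap between them at -0.30. The values spread more widely on scaffold 13, from -2.57 at the 10th percentile to 1.26 at the 90th, than on the other scaffolds, from -1.13 to 1.00. The median size of the difference, sign aside, was 0.80 on the log2 scale, against 0.48. A difference of at least 2-fold was present in 85 of the 213 genes (39.9%), called or not, against 22.2% elsewhere. Of the 151 among them that were not called, 87 were lower in B (57.6%, against 46.7% elsewhere), with a median log2 of -0.17 against 0.05. The lean was smaller without the weakly expressed genes: with a mean of at least 50, the median of scaffold 13 was -0.061 and that of the others 0.07.

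**Figure D3:**
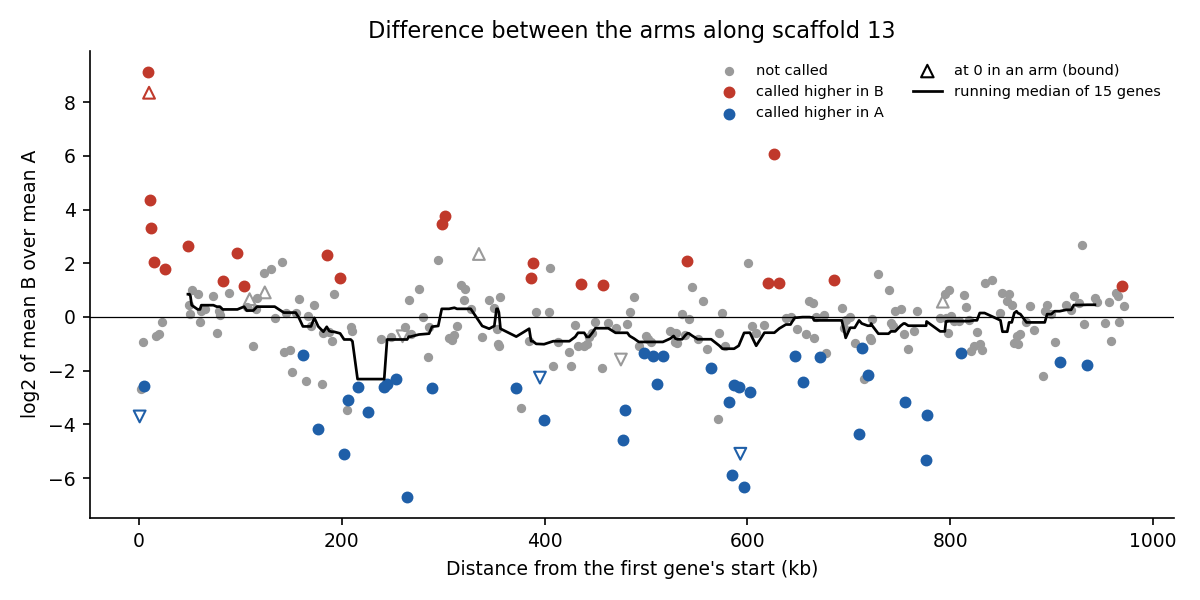
Log2 of the B mean over the A mean for each gene against its distance from the first gene's start (kb), with called genes in colour, open triangles for bounds of genes at 0 in an arm (left out where the other arm was under 3 counts), and a running median over 15 genes. The left end holds 9 of the 24 calls higher in B within 100 kb, and the calls higher in A lie mainly from 200 to 300, 500 to 600 and 700 to 800 kb.

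Calls of either direction were gathered in different stretches of the scaffold. In the first 100 kb, 9 of 28 genes were called with B above A and 2 with A above B, and the median log2 of B over A was 0.81. Past that point, 241 genes held 15 calls with B above A and 40 with A above B. The stretch from 200 to 300 kb had 1 call higher in B and 9 higher in A among 26 genes, with a median log2 of -0.84. From 500 to 600 kb the calls were 1 and 10 among 31 genes, with a median of -0.94, the lowest of the 10 stretches. From 700 to 800 kb there were 0 and 6 among 28 genes, with a median of -0.57. The quietest stretch, from 800 to 900 kb, held 1 call among 29 genes, higher in A, and its median was -0.14. The 4 remaining stretches between 100 and 700 kb had 5 to 8 calls each, with 2 to 4 in each direction.

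Levels varied along the scaffold as well. The median level per kb was 232 normalized counts in the first 100 kb and 192 in the last stretch, from 900 kb. Between them it ran from 22.6 (200 to 300 kb) to 88.1 (300 to 400 kb). The 50 kb stretch from 100 to 150 kb was weakest, with a median mean of 6.34 normalized counts. Both outer stretches thus had higher levels than every stretch between them, and both also had a median log2 above 0.40, which no stretch in between reached.

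**Figure D4:**
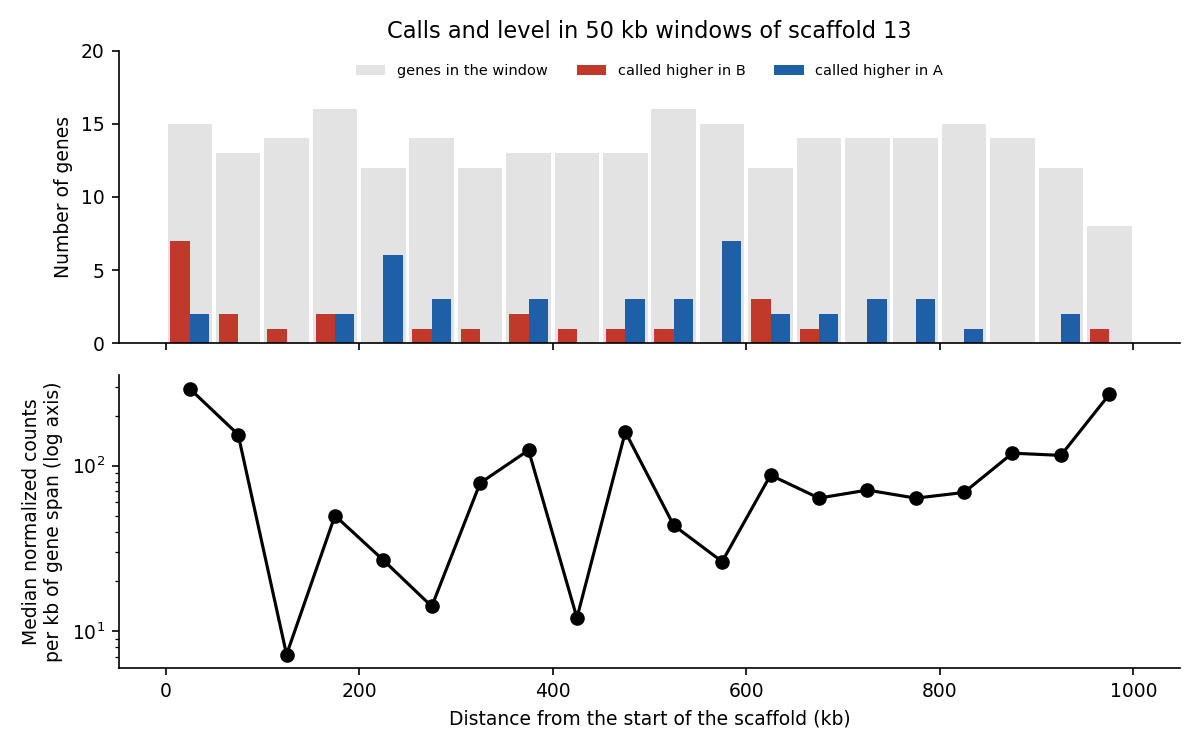
Number of genes called in each direction, and the median level per kb of gene model (normalized counts per kb), in windows of 50 kb along scaffold 13 (kb from the start), with pale bars for all genes of a window. The first window holds 7 calls higher in B, and the levels are highest in the outermost windows.

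Ends and middle were then set side by side, with 100 kb at each end. In the left 100 kb, 11 of 28 genes were called (39.3%), and in the right 100 kb 3 of 26 (11.5%), 1 higher in B against 2 higher in A. Both ends joined had 14 calls in 54 genes (25.9%) and the middle 52 in 215 (24.2%), 14 higher in B against 38 higher in A. The near-equal shares therefore averaged a left end rich in calls and a right end poor in them. The median log2 of B over A was 0.81 at the left end, 0.40 at the right end and -0.55 in the middle. The median levels per kb in the same order were 232, 151 and 52.6. On the 16 other scaffolds longer than 400 kb, the ends had 16.2% of their genes called and the middles 14.6%, with levels per kb of 121 and 122 and medians of 0.06 and 0.04 on the log2 scale. The order of ends and middle on scaffold 13 turned with the choices made: ends of 50 kb had 37.9% called against 22.9% in the middle, ends of 150 kb 18.1% against 27.4%, and the first and last 27 genes 24.1% against 24.7%. With the edgeR columns it was 29.6% against 33.0% at 100 kb.

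The outermost genes differed between the ends. Of the first 10 genes (190 to 17753), 7 were called, 5 higher in B against 2 higher in A, and they summed to 914 normalized counts in A against 7857 in B. The last 10 genes (942647 to 973222) summed to 4697 in A against 6431 in B. A single one of those was called, higher in B: the gene at 968736 had 242 normalized counts in A against 540 in B, by the authors' deposited table. No gene with a finite log2 value among these last 10 differed by more than 1.16 on that scale.

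At the left end, 5 consecutive short genes between 8577 and 14934 were all called higher in B. Together they occupied 6.36 kb and summed to 372 normalized counts in A against 7763 in B. The first, scaffold_13-snap.4.1 (8577 to 8804, minus strand, 228 bp), had 7.76 normalized counts in A against 4324 in B, by the authors' deposited table, 557-fold higher in B. Its adjusted p, computed from the edgeR likelihood ratio, was 1.47e-16. At 9500 normalized counts per kb it had the 3rd highest level on the scaffold, from arm B almost entirely. Its neighbour scaffold_13-snap.5.1 (9865 to 10086, plus strand, 222 bp) was listed at 0 in A, against 313 in B, by the authors' deposited table. It was at least 326-fold higher in B. That bound sets A at 3 counts summed over its libraries, covers counting error only, and becomes 196-fold with a floor allowing for the rescaling of 1 library. The adjusted p from the likelihood ratio was 2.80e-14.

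The other 3 genes of this group had counts in both arms. The gene at 10731 to 11236 had 85.9 normalized counts in A against 1743 in B, by the authors' deposited table, 20.3-fold higher in B. At 11885 to 12483 the table listed 41.2 and 414, a log2 difference of 3.33. The gene at 14402 to 14934 had 237 and 969 in the authors' deposited table, a log2 difference of 2.03. The size of the difference thus fell step by step from the first gene to the last of those with counts in both arms. All 5 models were between 222 bp and 599 bp long, under the scaffold's median length, and DESeq and edgeR called each of them.

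Just outside this group the direction turned. The gene at 4783 to 6142 had 508 normalized counts in A against 84.8 in B, by the authors' deposited table, 5.99-fold higher in A. The outermost gene of the scaffold, at 190 to 1242, was listed at 15.1 in A against 0 in B, by the authors' deposited table. It was at least 13.05-fold higher in A by the floor of 3 counts. On the inner side, 3 genes without a call (16325 to 23789) preceded the gene at 24206 to 27831, with 759 in A against 2603 in B, by the authors' deposited table. Across the 19.8 kb gap, the gene at 47679 to 49033 had 109 and 683 in the authors' deposited table, 6.25-fold higher in B. In the first 50 kb, 9 of 15 genes were called, 7 higher in B against 2 higher in A.

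Between 201355 and 289905 the calls were all higher in A. The gene at 213490 to 217851 was one of them, with 2397 normalized counts in A against 396 in B, by the authors' deposited table, 6.05-fold higher in A. Next to it lay the longest model of the scaffold (220902 to 231482, 10581 bp), with 83.2 and 7.19 in the authors' deposited table, 11.6-fold higher in A. The gene at 240945 to 242998 had 342 and 55.5, and its neighbour at 243504 to 246118 had 408 and 71.4, by the authors' deposited table. The 4 genes were thus 5.71-fold to 11.6-fold higher in A. At 264441 to 264747 a short model had 39.7 in A against 0.385 in B, by the authors' deposited table. That B value is the worth of 1 count, and the ratio of 103 has an exact Poisson interval at 95% from 18.5 to 4079 for the B count alone. Among the genes of this stretch without a call, 3 were at 0 in B and under 2 normalized counts in A in the authors' deposited table. Others had clear signal. The gene at 275650 had 566 in A against 1175 in B, by the authors' deposited table. There edgeR alone called it, higher in B, with an adjusted p of 0.028.

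Right after that stretch came a pair of genes called in the opposite direction. At 298470 to 299015 the authors' deposited table gave 97.9 normalized counts in A against 1085 in B, 11.1-fold higher in B. Its neighbour at 300176 to 303178 was 13.6-fold higher in B, with 2426 and 32896 normalized counts in the authors' deposited table. Its mean over both arms came to 5881 normalized counts per kb. From 300 to 400 kb the summed means gave a ratio of 4.03, B over A, with 3 calls in each direction. The gene at 300176 carried that ratio. Without it the stretch summed to 7409.7 normalized counts in A against 6744 in B, a ratio of 0.910, and its median log2 was -0.08.

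The longest run of calls lay from 581802 to 597580, where 6 consecutive genes over 15.8 kb were higher in A. They summed to 2842 normalized counts in A against 81.9 in B. Most of that sum belonged to estExt_fgenesh3_kg.C_130061 (584259 to 585592, minus strand), with 2520.3 in A against 42.4 in B, by the authors' deposited table, 59.4-fold higher in A. The adjusted p from its edgeR likelihood ratio was 8.56e-56. On its left side, the gene at 581802 to 582978 had 66.8 and 7.44 in the authors' deposited table, 8.98-fold higher in A. On its right side, the gene at 586342 to 587889 had 156 and 26.9 in the authors' deposited table, 5.81-fold higher in A.

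The right part of this run was weakly expressed. The gene at 590892 to 592425 had 29.0 normalized counts in A against 4.77 in B, by the authors' deposited table, with a DESeq adjusted p of 0.0171. At 592753 to 593810 the authors' deposited table listed 39.5 in A against 0 in B, at least 34.2-fold higher in A against 3 counts over arm B. The last gene, at 596460 to 597580, had 30.1 in A against 0.375 in B, by the authors' deposited table, the worth of 1 count in B. Its ratio of 80.3 has an exact Poisson interval at 95% from 14.4 to 3170.1 for the B count alone. All 6 genes were called by both tools. A listed 0, or 1 count, does not tell a gene that is not transcribed from one that is absent or diverged in that strain, and these cannot be told apart in this table.

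**Figure D5:**
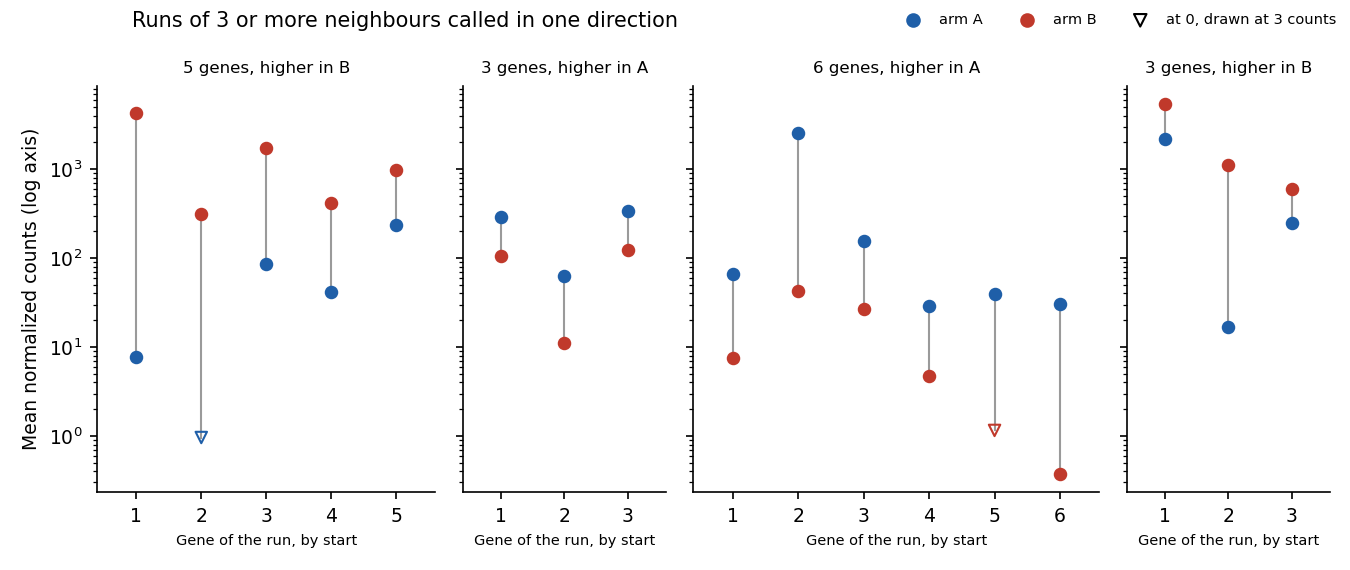
Arm means in A and B (normalized counts, log axis) of the genes in the runs of 3 or more consecutive genes called in the same direction, 1 panel per run and 1 pair of points per gene in the order along the scaffold. In the run from 8577 every B point lies above its A point, and in the run from 581802 every A point lies above its B point.

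The other runs of at least 3 genes held 3 each. Between 619480 and 633629, 3 consecutive genes were higher in B, with log2 differences from 1.26 to 6.05. In the middle of them, the gene at 626212 to 627500 had 16.7 normalized counts in A against 1104 in B, by the authors' deposited table, 66.3-fold higher in B. The outer genes, at 619480 and 629797, were 2.42-fold and 2.40-fold higher in B, with adjusted p-values of 0.0286 and 0.0147 in the authors' deposited table. The middle gene thus stood far above both neighbours in the size of its difference. From 506546 to 521274, 3 consecutive genes were higher in A, with log2 differences from -2.51 to -1.46. The third of these, a model of 8853 bp starting at 512422, was not called by edgeR, with an adjusted p of 0.0822 by the authors' deposited table.

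Neighbours with a large difference in A also occurred as pairs. On opposite strands, estExt_fgenesh2_pg.C_130128 (477136 to 478454) and the gene at 478690 to 480607 were both higher in A. The former had 133 normalized counts in A against 5.52 in B, by the authors' deposited table, 24.1-fold higher in A. The latter had 2835 and 255 in the authors' deposited table, 11.1-fold higher in A. At 709332 to 711497 the authors' deposited table gave 1479 in A against 72.9 in B, 20.3-fold higher in A, and the adjoining gene at 712326 was 2.23-fold higher in A with an adjusted p of 0.0415. The pair at 776406 to 776857 (minus strand) and 776851 to 777129 (plus strand) had 56.2 and 24.9 in A, and 1.42 and 2.00 in B, by the authors' deposited table. The models share 7 bp of their 452 bp and 279 bp, and whether the counting used strand is not given in the sources used here.

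Other large differences stood alone or in pairs. Next to the gene at 395026, also called higher in A, the gene at 398728 had 237 normalized counts in A against 16.4 in B, by the authors' deposited table, 14.5-fold higher in A. At 371245, the right border of the 13.98 kb gap, the authors' deposited table gave 425 in A against 68.3 in B. The gene at 602296 had 89.4 and 12.95 in the authors' deposited table, 6.90-fold higher in A. In the other direction, the gene at 540511 had 20.2 in A against 86.3 in B, by the authors' deposited table, 4.27-fold higher in B, amid a stretch whose 10 other calls were higher in A. Among the 10 genes with the largest folds in B, 6 started within 50 kb of the left end. Of the 10 largest in A, 1 did, and the rest were spread between 213490 and 711497.

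Over the whole scaffold, 23 of 268 neighbouring pairs were called in the same direction (8.58%), against 2.92% of 9216 pairs in the table. The share of genes called, which alone raises the number of such pairs, was 24.5% on the scaffold and 15.0% over all genes. Whether such pairs exceeded what that share gives was not tested. Opposite calls were present in 2 of the 268 pairs, against 67 of the 9216. Of the 23 same-direction pairs, 10 were higher in B and 13 in A, against 116 and 153 over all genes. Such neighbours formed 14 runs of 2 or more genes, 6 higher in B with 16 genes and 8 higher in A with 21. The other 29 called genes had no neighbour called in the same direction. Tandem pairs, read in the same orientation, held 12 of these same-direction pairs among 129 (9.30%, against 3.10% over all genes). Divergent pairs, whose starts face each other, held 7 among 69 (10.1%, against 3.01%). Convergent pairs held 4 among 70 (5.71%, against 2.52%). As a description across pairs that share an arm's libraries, Spearman's rho of the log2 values of neighbours was 0.36 on scaffold 13 (171 pairs) and 0.19 elsewhere (7132 pairs). With the calls made at a 4-fold limit, the 23 pairs became 15.

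Of the 10 genes with the highest means, 7 were not called. Highest per kb and in sum was the gene at 921556 to 922982, with 23831 normalized counts in A against 41102 in B and a DESeq adjusted p of 0.490, by the authors' deposited table. It took 15.7% of the scaffold's sum in A and 20.5% in B, and its level was 22752 normalized counts per kb. Second per kb was the gene at 169343 to 170158, with 10160.3 and 7954 in the authors' deposited table, 11099 per kb. The gene at 64422 had 10149 and 12320.4 in the authors' deposited table, and that at 789409 had 6598 and 6489 with an adjusted p of 0.976. The other 3 of the 10 were higher in B, at 196600, 300176 and 619480. These 10 took 48.3% of the scaffold's sum in A and 60.8% in B.

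At the low end, 6 genes had no count in A, and 8 had none in B, in the authors' deposited table. Of these 14, 1 and 3 were called. The 10 without a call had at most 4.88 normalized counts in the other arm, where edgeR called 3 of them and DESeq none. Model length and type were also read against the calls. Of 4 models of at least 5000 bp, 3 were called, all higher in A, where 13.1% of such models in the whole table were called, 18 with B above A and 17 with A above B. On the plus strand 34 of 145 genes were called (23.4%, against 15.0% of all plus-strand genes), and on the minus strand 32 of 124 (25.8%, against 14.9%). Of 31 models with snap in the name, 6 were called (19.4%, near the 16.2% of all such models), among them both of the short genes at 8577 and 9865.

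In the edgeR columns, the authors' deposited table called 87 of the 269 genes (32.3%, against 21.4% of all genes), 32 with B above A and 55 with A above B. Of the DESeq calls, 63 were shared. DESeq alone called 3, at 101872, 457782 and 512422, with edgeR adjusted p-values of 0.136, 0.529 and 0.0822 in the authors' deposited table. The 24 genes called by edgeR alone, 10 higher in B against 14 higher in A, had a median log2 difference of 1.07, sign aside. Their DESeq adjusted p-values ran from 0.0516 to 0.324. The edgeR calls thus added genes in both directions and left those higher in A in the majority.

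The edgeR columns also list an average log2 CPM per gene, and the libraries behind that average are not stated. For the 131 genes whose mean reached 100 normalized counts, it differed from the log2 CPM of the 2 arms' mean by a median of -0.06 (SD 0.338 across genes), against 0.02 (SD 0.275) for 6017 genes elsewhere. A single gene of the 131, at 666614, lay more than 1 above, by 1.10, and was listed at 114 in A against 113 in B, by the authors' deposited table. Among genes with means from 10 to under 100, those at 750475 and 220902 lay furthest above, by 2.39 and 2.36. The gene at 750475 was not called, and that at 220902 is the longest model, called higher in A. Some genes with means under 10 lay further above, such as the gene at 689278, by 4.51 with a mean of 0.145. On the other side, the genes at 626212 and 478690 differed by -0.85 and -0.81 on that log2 scale.

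The scaffolds numbered before and after it are given beside scaffold 13. Scaffold 12 had 14.2% of its genes called, 17 higher in B against 25 higher in A, with a median log2 of -0.12. Scaffold 14 had 15.5%, 10 higher in B against 24 higher in A, with a median of -0.10. Both therefore also had more calls higher in A and a median below 0. Scaffolds 15, 16, 17 and 18 had 23.8%, 22.9%, 22.2% and 33.3% of their genes called. Their median levels per kb were 69.7, 89.2, 48.4 and 86.3. A low level with a high share called was thus not particular to scaffold 13. Scaffolds 22 and 23, at 64.8 and 95.7 per kb, had 16.7% and 10.9% called. Among the 23 scaffolds, the share called on scaffold 13 was the 2nd highest, the share higher in A the 2nd highest and the share higher in B the 8th highest. The median size of the log2 difference ranked 3rd highest.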

How the data were processed

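RNA from mycelial pads was extracted with Trizol and sequenced on Illumina instruments, per the labels' protocols. The submitters' processing notes name DESeq, edgeR, HTSeq, SAMtools, TopHat2 2.1.1, cutadapt 1.3 and FastQC 0.11.4, with no role or order. Not given in the sources used here are the genome build, annotation and strand setting. Coordinates are those that the authors listed.

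The DESeq columns, per the file headers, give the mean level (a score in normalized counts) over both arms and per arm, a fold ratio, and p-values with and without adjustment. The edgeR columns, per the file headers, give the likelihood ratio (a score), the log2 fold change, the average on the log2 CPM scale, the p-value and its false discovery rate. The deposited p-values are rounded to 4 decimals. The deposited DESeq log2 fold change has error entries and was not used.

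The members and rules were chosen with earlier results of these data known. The design foresaw count models. The deposited table holds the authors' statistics without values per library, so no model was fitted here, and calls are the authors' DESeq adjusted p-values under 0.05 over all 9280 genes. A repeated Benjamini-Hochberg adjustment of the p-values that the authors gave moved no call (largest difference 0.0008 for DESeq and 0.0006 for edgeR). Log2 values are B over A from the arm means, without a pseudocount, and their medians take genes with a mean of at least 10 and counts in both arms. Levels per kb divide by the span of the gene model, introns included. Where the authors listed edgeR p-values as 0, values were computed from the likelihood ratio with 1 degree of freedom and adjusted over all genes. For means under 3 in A (425) and B (500 of 501), every decomposition into whole counts of 3 libraries, within 0.0004, gave the same total. Low means could therefore be read as total counts of an arm, although a count need not be 1 read in every library. In 1 library of A no low mean held 1 or 4 counts, and in 1 library of B none held 2. Floors are 3 counts over an arm, and intervals are exact Poisson intervals at 95%. Both cover counting error only.

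Genes were named by rule: the 10 largest folds each way of called genes whose mean reached 50, the 10 highest means, runs of 3 or more calls, and the first and last 10 genes. Other genes named here were chosen after their values were seen. The scripts (Python 3.11.15, pandas 2.3.3, numpy 2.4.6, scipy 1.17.1) were tested on simulated data. Alternatives tried were the authors' own edgeR columns, calls by both tools, a stricter threshold, a 4-fold limit, level filters, equal arm totals, other end widths and leaving out overlapping models.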

Additional observations from a re-analysis of the deposited data

How the results depend on the processing

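Of 51 alternative values for the summaries of scaffold 13, 38 were classed as unchanged and 13 as moved. The unchanged class was wide. It took in 44 genes called at 4-fold and 87 with the edgeR columns, against 66. It also took in 31 and 55 calls higher in A at these settings, against 42. For the shares called at the ends or in the middle, unchanged meant within the exact 95% binomial interval. That interval treats genes as independent, although they share the same libraries. The 38 include the calls, pairs and shares called at equal arm totals, which could not move. That setting shifts log2 values by 0.17, while the smallest called difference was 1.14. The order of ends and middle turned with ends of 150 kb, with the first and last 27 genes and with the edgeR columns. The ends' 25.9% ran from 16.7% (4-fold) to 37.9% (ends of 50 kb), and both of these values were classed as unchanged. The 66 calls became 43 once the mean had to reach 10 CPM, with 22 higher in A (against 42), which left 32.8% of 131 such genes called, against 14.8% over all. At 4-fold, the 24 calls higher in B became 13. The 23 neighbouring pairs called in the same direction became 13 at an adjusted p under 0.01, 15 at 4-fold and 11 at 10 CPM. The middle's 24.2% became 33.0% with the edgeR columns, 17.2% at an adjusted p under 0.01, 16.3% at 4-fold and 14.4% at 10 CPM. The median log2 of -0.25 became -0.061 with a mean of at least 50 and -0.43 at equal arm totals. The median level of 92.9 became 177 with a mean of at least 10 (292 on the other scaffolds). The bound of 326-fold at 9865 became 196 with a floor of 3 counts before a rescaling of 1 library of A, chosen after the data had been seen because the low counts of that library lack 1 and 4. In B, the low counts of 1 library lack 2, and bounds and intervals for B were given without such a floor. The causes of these moves were not tested, other than that stricter limits leave fewer genes. The 22 called genes among the largest folds and highest means kept their call with the edgeR columns, while the gene at 512422, in a run of 3, lost its call there. Their sign at equal arm totals is no check, since each differed by more than that shift. No paired analysis was possible because the table holds no value per library. For the same reason, leaving out each replicate, another normalization and a refit were not run. Depth limits the 54 genes with means under 10.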
